A study of Zea mays with 2 samples.

Results

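The first 30 Mb of maize chromosome 7 were described in endosperm of the opaque2 mutant and of wild type, both at 15 days after pollination. The members were all loci on chromosome 7 whose start, as written in the deposited tables, lay below 30000000, and there were 705 of them among 44119 loci in all. The stretch was chosen by its log2 ratios, that is by the share and size of differences between these same libraries, so the counts and ratios below describe it and support nothing by themselves. The endosperm is the starchy part of the kernel, and its RNA was sequenced and given as FPKM, fragments scaled by transcript length and library size. There were 2 samples, 1 labelled opaque2 and 1 labelled wild type, so no difference has a replicate check and no test was made. The design text speaks of triplicates, and the sources used here do not say whether a value pools several libraries. Neither the opaque2 allele nor the inbred line of either genotype is stated, so how far they differ outside the opaque2 gene is unknown. Depth is unknown as well, since the values carry no counts.

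Opaque2 encodes a transcription factor of the bZIP class that acts in the endosperm. It activates genes of zeins, the storage proteins of the grain, and other genes of the filling kernel, and its mutants have soft, opaque kernels richer in lysine. The alpha zeins are encoded by families of similar copies, many of them in tandem. The reference gene table places the opaque2 gene on chromosome 7, in another assembly than could be tied to these loci. Of the 705 loci, 0 matched a gene of that table by start and end. The files give positions without names, so no locus below carries a gene name or a role, the level of the opaque2 gene could not be read by name, and the labels were not checked against it.

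Loci of the stretch differed between the genotypes in both directions. A locus counted as differing when it reached 5 FPKM in the higher library and its ratio of FPKM + 1 was at least 2-fold. Of the 272 members that reached 5 FPKM, 34 were higher and 26 lower in opaque2, together 22.1%. Over all 15833 loci that reached 5 FPKM the share was 7.91%, with 4.07% higher and 3.84% lower. In the rest of chromosome 7 it was 9.18% of 991 loci, and on the other 9 chromosomes 7.59% of 14478 loci. These shares were part of the choice of the stretch. With 1 library per genotype no test of their difference could be made.

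The members differed in size rather than in a common direction. The log2 ratios of opaque2 over wild type had a median of 0.05, against −0.04 over all loci that reached 5 FPKM. Regardless of sign, the median size of the log2 ratio was 0.40, or 1.32-fold, against 0.26 in the rest of chromosome 7 and 0.23 on the other 9 chromosomes. Of the 272 members, 63.6% lay within 1.5-fold, against 78.9% in the rest of chromosome 7 and 83.1% on the other 9 chromosomes. At 4-fold, 15 members were higher and 17 lower, 11.8% of them, where 3.23% of all loci passed that fold, 2.03% higher and 1.19% lower. At 1.5-fold, 99 members passed, or 36.4%, against 17.4% of all loci. Among members that missed 2-fold, 39 still reached 1.5-fold, 18 of them higher and 21 lower.

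**Figure D1:**
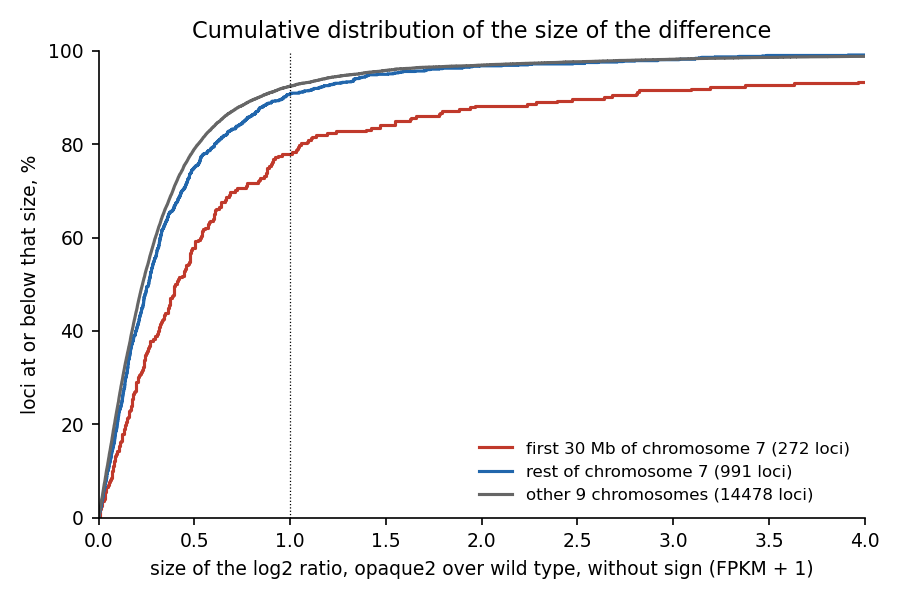
Cumulative share of loci (vertical axis, %) by the size of the log2 ratio without its sign (horizontal axis, log2 units of FPKM + 1), for loci that reached 5 FPKM. The curve of the first 30 Mb of chromosome 7 lies below those of the rest of chromosome 7 and of the other 9 chromosomes, and the dotted line marks 2-fold.

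The balance of directions can be set beside a pair of other stretches with many differing loci, also chosen as such. On chromosome 3 from 15 to 30 Mb, 20 loci were higher and 10 lower of 98, or 30.6%. In the first 10 Mb of chromosome 4, 3 were higher and 20 lower of 103, or 22.3%. The median log2 ratio was 0.10 in the chromosome 3 stretch and −0.07 in that of chromosome 4. Beside these stretches, the first 30 Mb of chromosome 7 held both directions in closer number, with 34 higher and 26 lower, although this difference was not tested. Close numbers were not particular to it: over all loci 644 were higher and 608 lower, and in the rest of chromosome 7 42 and 49. They also depended on the loci admitted. Among members of 300 bp or more above 0 in both libraries, 27 were higher and 16 lower.

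Along the stretch the differing loci were unevenly spread. The 43 members of 5 FPKM or more at 0 to 5 Mb all lay within 2-fold, with log2 ratios from −0.91 to 0.89. The first differing locus started at 5068103 and the last at 29544745. That first locus was 110 bp long and listed at 0 in opaque2, against 580 FPKM in wild type. The first differing locus above 0 in both libraries started at 6352735. Between 5 and 30 Mb, 60 of 229 members of 5 FPKM or more differed, or 26.2%. The share was 19.4% at 5 to 10 Mb (13 of 67), 42.1% at 10 to 15 Mb (24 of 57), 23.1% at 15 to 20 Mb (12 of 52), 18.5% at 20 to 25 Mb (5 of 27) and 23.1% at 25 to 30 Mb (6 of 26). Every window from 5 Mb on was therefore above the 7.91% of all loci, while the first window had none.

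**Figure D2:**
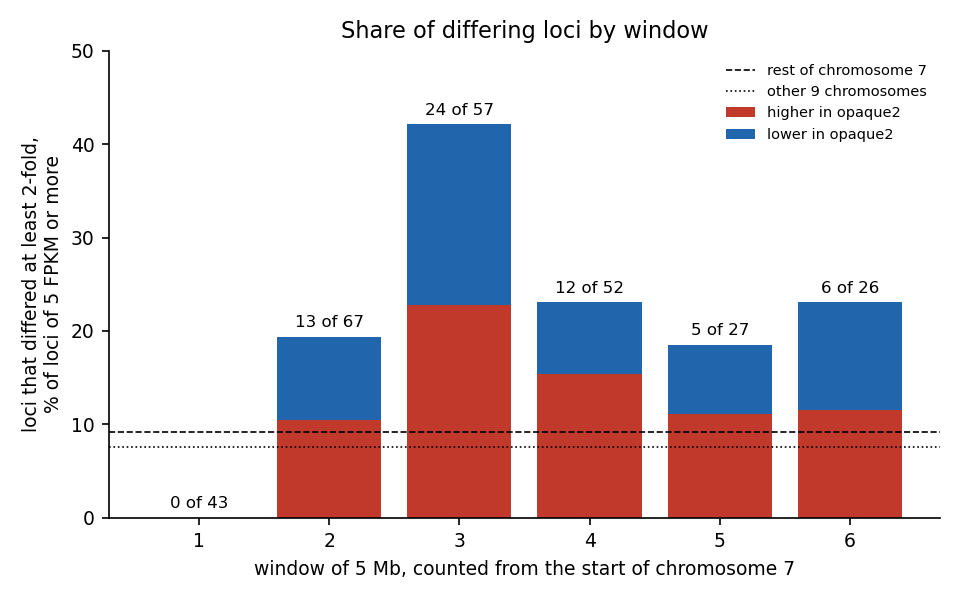
Share of loci that differed at least 2-fold (vertical axis, % of loci of 5 FPKM or more) in the 6 windows of 5 Mb from the start of chromosome 7 (horizontal axis), split into loci higher and lower in opaque2, with the counts above the bars. The third window is highest with 24 of 57 loci, the first has 0 of 43, and the lines give the rest of chromosome 7 and the other 9 chromosomes.

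In even steps of 2 Mb, the share was 40% at 10 to 12 Mb, 42.3% at 12 to 14 Mb and 47.1% at 14 to 16 Mb. Within the window at 10 to 15 Mb the differing loci were densest at 11 to 13 Mb, edges set with the values known. There 14 of 20 members of 5 FPKM or more differed, 7 higher and 7 lower, and the median size of the difference was 3.57-fold. The first differing locus there, at 11136867 to 11144040, was higher, with 6.01 FPKM in opaque2 against 2.39 FPKM in wild type. Lower loci followed, from the first at 11433783 to the end of the last at 12480176. Of the 9 members of 5 FPKM or more there, 7 were lower in opaque2. Those at 11433783, 11434810, 11438104 and 11608451 were listed at 0 in opaque2. The other 2 of the 9 were within 2-fold. That at 11440921 to 11445373 had 144 FPKM in opaque2 against 98.6 FPKM in wild type. That at 11663431 to 11671232 had 27.2 FPKM in opaque2 against 25.5 FPKM in wild type. Next came loci within 2-fold at 12526620 and 12583271. Beyond these, all 6 members of 5 FPKM or more from 12618639 to 12744826 were higher in opaque2. The largest ratio of those above 0 in both libraries was at 12701416 to 12702254, with 102 FPKM in opaque2 against 7.27 FPKM in wild type (log2 ratio 3.63).

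Windows of 1 Mb hold few loci, and neighbouring windows could differ widely. At 16 to 18 Mb, between stretches with many differing loci, 1 of 14 members of 5 FPKM or more differed. At 19 to 20 Mb it was 0 of 11. At 4 to 5 Mb none of 11 such members reached 2-fold, yet their median log2 ratio was 0.47. At 5 to 6 Mb the median of 9 such members was −0.50.

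Among loci of 5 FPKM or more, the most reduced one above 0 in both libraries stood between neighbours within 2-fold. At 10793341 to 10796233, over 2893 bp, it had 1.304 FPKM in opaque2 against 259 FPKM in wild type (log2 ratio −6.82). Its nearest neighbour of 5 FPKM or more on the lower side, at 10775147 to 10779088, had 59.5 FPKM in opaque2 against 40.7 FPKM in wild type (log2 ratio 0.54). The nearest on the other side, at 10970395 to 10971733, had 5.83 FPKM in opaque2 against 3.50 FPKM in wild type (log2 ratio 0.60). Both of these neighbours leaned the other way. Loci below 5 FPKM lay closer. That at 10786267 to 10792397 had 3.87 FPKM in opaque2 and was listed at 0 in wild type. On the other side, loci at the shared position 10898412 to 10902673 had 0.0871 against 1.36 FPKM and 0.163 against 0.164 FPKM in opaque2 against wild type. That at 10911462 was listed at 0 in opaque2 against 0.288 FPKM in wild type. Of the 6 nearest members of 5 FPKM or more on the lower side of the most reduced locus, 1 differed. It was a locus of 118 bp with 88.0 FPKM in opaque2, listed at 0 in wild type. Of the 6 nearest on the other side 3 differed, of which the locus at 11136867 was higher. The lower ones were at 11433783 to 11434489 and 11434810 to 11435265. They were listed at 0 in opaque2 and had 15.4 and 31.1 FPKM in wild type.

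**Figure D3:**
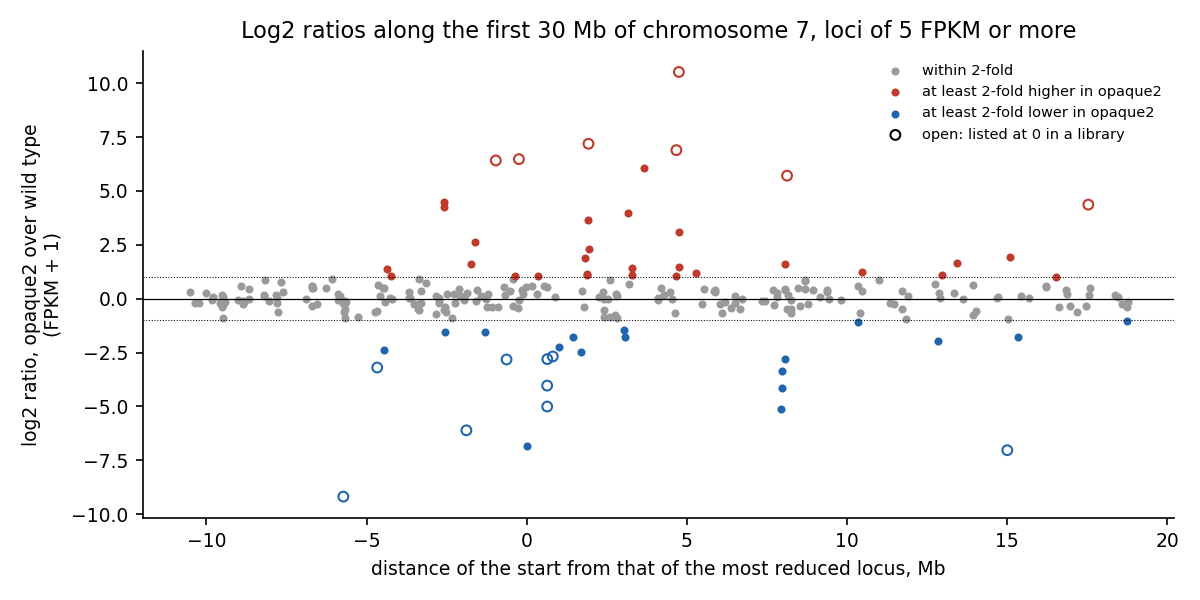
Log2 ratio of opaque2 over wild type (vertical axis, FPKM + 1) for the 272 loci of 5 FPKM or more, by the distance of each start from that of the most reduced locus (horizontal axis, Mb). That locus is the most reduced one above 0 in both libraries, and some loci listed at 0 in opaque2 lie lower. Filled points are above 0 in both libraries, open points are listed at 0 in a library, dotted lines mark 2-fold, and loci on both sides of 0 stand next to each other through most of the stretch.

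Neighbouring loci that both differed mostly did so the same way. Of 24 pairs of consecutive members of 5 FPKM or more that both differed, 21 had the same direction and 3 opposite ones, or 87.5% the same way. On the 10 chromosomes outside the stretch it was 118 of 166 such pairs, or 71.1%. Loci at one position made up 3 of the 21 pairs. Without pairs at one position it was 18 of 21 in the stretch, against 82 of 129 outside it. The difference was not tested. Runs of at least 3 such loci numbered 6, with 3 runs lower and 3 higher. The shortest, at 11433783 to 11439021, spanned 5.24 kb with 3 loci, all listed at 0 in opaque2 and together at 52.4 FPKM in wild type. The widest, at 11804386 to 12480176, spanned 676 kb with 3 loci that summed to 13.6 FPKM in opaque2 against 72.7 FPKM in wild type. Members of a run can be copies or overlapping models that share reads, and this was not tested.

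The highest log2 ratio of FPKM + 1 among loci above 0 in both libraries was at 14459963 to 14466085. It had 2720 FPKM in opaque2 against 39.7 FPKM in wild type, 68.6-fold higher in FPKM (log2 ratio 6.06). It was the third highest locus of the stretch in opaque2. Some loci near 0 in wild type had larger ratios of plain FPKM, namely those at 13961048 and 8218240. The loci before that at 14459963, 2 at the shared position 14077852 to 14081075, were higher as well, with 7.53 against 2.19 FPKM and 12.1 against 5.08 FPKM in opaque2 against wild type.

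Other loci of 300 bp or more with high ratios were low or near 0 in wild type. A locus at 13961048 to 13963397 had 16.0 FPKM in opaque2 against 0.0918 FPKM in wild type (log2 ratio 3.96). At 8218240 to 8220358, 3 loci shared a position. They had 19.7, 26.1 and 2.46 FPKM in opaque2, against 0.0785, 0.228 and 0 FPKM in wild type. All 3 were higher in opaque2, and the first 2 reached 5 FPKM (log2 ratios 4.26 and 4.47). The locus at 15542537 to 15548638 had 57.1 FPKM in opaque2 against 5.81 FPKM in wild type (log2 ratio 3.09). That at 9190187 to 9194168 had 21.1 FPKM in opaque2 against 2.56 FPKM in wild type (log2 ratio 2.64).

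Higher loci also lay toward the far end of the stretch. At 25903581 to 25911265 there were 137 FPKM in opaque2 against 35.0 FPKM in wild type (log2 ratio 1.94). At 24224762 to 24227600 there were 16.8 FPKM in opaque2 against 4.64 FPKM in wild type (log2 ratio 1.66). Higher loci of low level in both libraries were at 9049450 to 9050246, with 5.58 FPKM in opaque2 against 1.13 FPKM in wild type, and at 12618639 to 12619361, with 9.77 FPKM in opaque2 against 1.92 FPKM in wild type. At 12744197 to 12744826 there were 50.4 FPKM in opaque2 against 9.55 FPKM in wild type (log2 ratio 2.28). All of these were above 0 in both libraries.

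Several lower loci above 0 in both libraries lay outside the array described further on. At 6352735 to 6354049 there were 8.29 FPKM in opaque2 against 47.8 FPKM in wild type (log2 ratio −2.39). At 12479307 to 12480176 there were 3.51 FPKM in opaque2 against 24.0 FPKM in wild type (log2 ratio −2.47). At 13851997 to 13853595 there were 17.2 FPKM in opaque2 against 61.2 FPKM in wild type (log2 ratio −1.77). The locus just before the last one, at 13844415 to 13850805, was lower too, with 33.6 FPKM in opaque2 against 94.8 FPKM in wild type (log2 ratio −1.47). It lay outside the rule for named loci and was added after its value was seen. Beyond 20 Mb, the locus at 23649047 to 23650305 had 2.84 FPKM in opaque2 against 14.0 FPKM in wild type, and that at 26151715 to 26154159 had 1.10 FPKM in opaque2 against 6.28 FPKM in wild type. These lower loci ran from 6 Mb to beyond 26 Mb, with levels in wild type between 6.28 and 94.8 FPKM.

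Values of exactly 0 were common, and a 0 can be a failed estimate. Of all 705 members, 32 (4.54%) were listed at 0 in opaque2 and 112 (15.9%) in wild type. Over all loci it was 3.14% in opaque2 and 11.1% in wild type. Among the 272 members that reached 5 FPKM in either library, 9 were listed at 0 in opaque2 and 7 in wild type. Of the 9, 7 were 300 bp or longer, and of the 7 in wild type, 1 was. Over all 15833 loci that reached 5 FPKM, 87 were listed at 0 in opaque2 and 210 in wild type. Loci shorter than 300 bp differed more often: 9 of 12 such members differed, and 51.3% of such loci in the whole tables. Among members of 300 bp or more, 19.6% of 260 differed, against 6.12% of all 15207 such loci.

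The longer loci listed at 0 in opaque2 included one of high level in wild type. At 25805168 to 25810013 there are 2 loci at one position. One had 0 FPKM in opaque2 against 129.7 FPKM in wild type, and the other had 2.82 FPKM in opaque2 against 1.97 FPKM in wild type. Summed over the position, there were 2.82 FPKM in opaque2 against 132 FPKM in wild type (log2 ratio −5.12). At 6126182 to 6128339 one locus had 0 FPKM in opaque2 against 8.15 FPKM in wild type, while its partner at the same position had 5.53 FPKM in opaque2 against 8.72 FPKM in wild type. In the reverse direction, at 15469931 to 15472402, one locus had 118 FPKM in opaque2 and was listed at 0 in wild type. Its partner had 31.5 FPKM in opaque2 against 14.8 FPKM in wild type. Loci at one position were paired between the libraries by their order in the tables, which list the same positions in the same order.

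Of the members, 140 shared 65 positions with another locus, 57 positions with 2 loci, 6 with 3 and 2 with 4. Among those that reached 5 FPKM, 13 of 54 at shared positions differed (24.1%), against 47 of 218 at a position of their own (21.6%). At the 8 positions with 3 or more loci, 2 of 14 differed. Over all loci that reached 5 FPKM, 7.91% differed, a share that was not split by shared position. Partners did not always go the same way. At 11804386 to 11806517 one locus had 6.18 FPKM in opaque2 against 32.8 FPKM in wild type, and the other had 3.04 FPKM in opaque2 against 1.60 FPKM in wild type. At 21140575 to 21151267 both loci had 13.8 FPKM in opaque2, against 30.5 and 8.71 FPKM in wild type. The split of reads between loci at one position is uncertain. With the loci of each position summed, 55 of 258 positions differed, or 21.3%. Summed in the same way, the share was 8.99% in the rest of chromosome 7 and 7.38% on the other 9 chromosomes.

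Differing members were found at all levels, with the highest share among abundant ones. Of members that reached 100 FPKM in either library, 14 of 32 differed (43.8%), against 21.0% of 1142 such loci in the whole tables. At 50 to 100 FPKM it was 11 of 35 (31.4%), against 9.23%. At 5 to 10 FPKM, 12 of 71 differed (16.9%), against 7.54%. The share also varied with the span of the locus: 17 of 41 members of 300 to under 1000 bp differed (41.5%), and 11 of 113 of 3000 to under 10000 bp (9.73%). The whole tables had 18.8% and 3.27% in these classes.

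**Figure D4:**
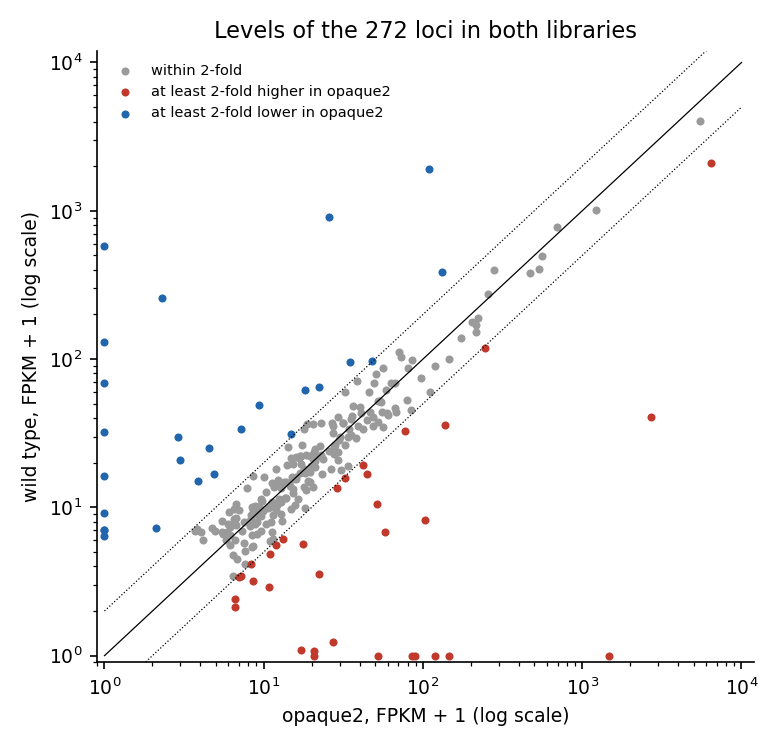
Level of each of the 272 loci in opaque2 (horizontal axis, FPKM + 1, log scale) and in wild type (vertical axis, FPKM + 1, log scale), with equality as a solid line and 2-fold as dotted lines. The 34 higher and 26 lower loci are coloured, and those on an axis edge are listed at 0 or lie near it in that library.

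Abundant members with steady levels lay among the differing ones. Within 1.5-fold lay 63.6% of the 272 members, against 82.6% of all loci that reached 5 FPKM. Within 1.2-fold were 100 of the 272 members, or 36.8%, a share not computed for all loci. The most abundant of them, at 6356093 to 6357279, had 697 FPKM in opaque2 against 777 FPKM in wild type (log2 ratio −0.16), a few kb from the lower locus at 6352735. The next, at 18943733 to 18944704, had 554 FPKM in opaque2 against 493 FPKM in wild type (log2 ratio 0.17). It lay beyond the array of similar loci described next. The locus at 8046592 to 8060718 had 253 FPKM in opaque2 against 273 FPKM in wild type, and that at 24410021 to 24413947 had 66.2 FPKM in opaque2 against 67.9 FPKM in wild type. At 24151509 to 24152227, just past 1.2-fold, there were 1215 FPKM in opaque2 against 1007 FPKM in wild type (log2 ratio 0.27).

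An array of 6 loci of nearly equal span, between 18744943 and 18867189, held the highest levels of the stretch. The first member had 24.8 FPKM in opaque2 against 903 FPKM in wild type, a log2 ratio of −5.13. For the second it was 108 FPKM in opaque2 against 1920 FPKM in wild type, a log2 ratio of −4.14. The third was the lowest of these, with 1.88 FPKM in opaque2 against 28.9 FPKM in wild type, a log2 ratio of −3.38. These first 3 were all lower in opaque2, by 36.4-fold, 17.8-fold and 15.4-fold. A gap of 74.8 kb separated them from the other 3, more than the 22.9 kb and 9.57 kb between the first 3.

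The last 3 members leaned the other way. The fourth had 5487 FPKM in opaque2 against 4060 FPKM in wild type (log2 ratio 0.43). The fifth had 5.41 FPKM in opaque2 against 3.80 FPKM in wild type (log2 ratio 0.42). The sixth had 6445 FPKM in opaque2 against 2091 FPKM in wild type (log2 ratio 1.62). Only the sixth of these passed 2-fold. Levels of neighbouring members thus spanned 3 orders of magnitude in both genotypes, although their spans differed by at most 4 bp.

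**Figure D5:**
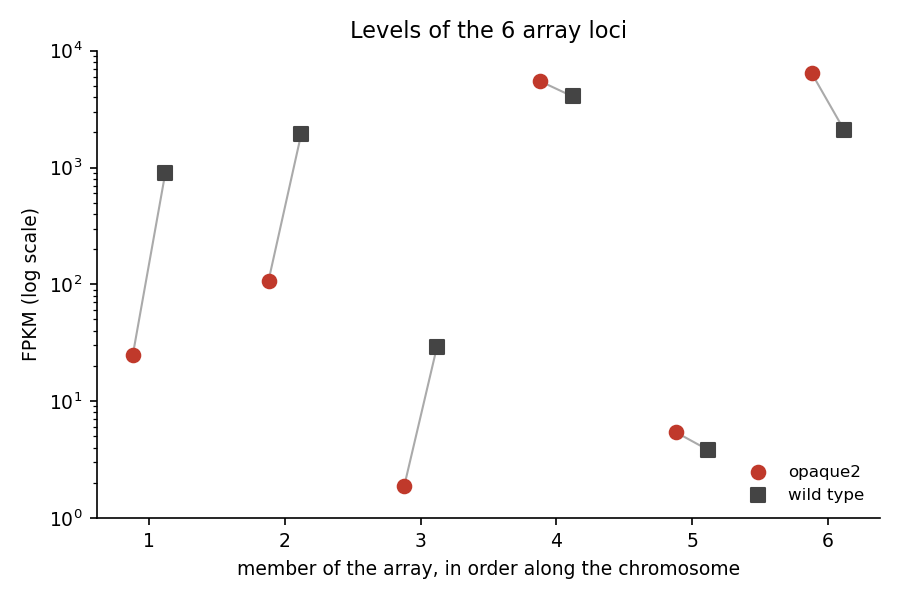
Levels of the 6 array loci (vertical axis, FPKM, log scale) in order along the chromosome (horizontal axis), with opaque2 as circles left of wild type as squares. The first 3 members are lower in opaque2 and the last 3 higher.

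The makeup of the array therefore differed between the genotypes. In opaque2 the sixth member held 53.4% of the array's summed FPKM and the fourth 45.5%. In wild type the sixth held 23.2% and the fourth 45.1%, and the second member held 21.3% and the first 10.02%. In opaque2 the first 3 together had 134 FPKM, against 2852 FPKM in wild type. The array as a whole had 12071 FPKM in opaque2 against 9007 FPKM in wild type (log2 ratio 0.42). Without the sixth member, which had the highest single value, the log2 ratio of the sums was −0.30, so the direction rested on that locus. Loci of such like span may share reads, and the tables do not show how reads were split. Just beyond the array, at 18869059 to 18869387, a locus of 329 bp had 1.97 FPKM in opaque2 against 19.9 FPKM in wild type (log2 ratio −2.81).

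In sum, the members held 28057 FPKM in opaque2 against 20802 FPKM in wild type (log2 ratio 0.43). Opaque2 exceeded wild type by 7255 FPKM over all members, by 3064 FPKM in the array and by 4146 FPKM in 2 loci outside it, named below. Of each library's sum over the members, the array held 43.0% for opaque2 and 43.3% for wild type. Outside the array, the 2 highest loci in opaque2 were that at 14459963 and one of 96 bp at 15549315 to 15549410. The short one had 1466 FPKM in opaque2 and was listed at 0 in wild type. At so short a span a few fragments give a high FPKM. Without the array and these 2 loci, the other 697 members summed to 11800 FPKM in opaque2 against 11755 FPKM in wild type (log2 ratio 0.01). This sum was added after the values were known. The 2 loci were picked by their level in opaque2 alone, so leaving them out favoured a lower opaque2 sum. A locus of 110 bp at 5068103, listed at 0 in opaque2 against 580 FPKM in wild type, was kept. The 34 higher loci summed to 12126 FPKM in opaque2 against 2436 FPKM in wild type, and the 26 lower loci to 426 FPKM in opaque2 against 4851 FPKM in wild type.

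The remaining 433 members stayed below 5 FPKM in both libraries, and 268 of them below 1 FPKM. Together they held 411 FPKM in opaque2 against 373 FPKM in wild type. Just above the limit of 5 FPKM, the locus at 13200847 had 3.13 FPKM in opaque2 against 5.01 FPKM in wild type, and that at 20619448 had 4.79 FPKM in opaque2 against 5.07 FPKM in wild type. Just below it, the locus at 21546705 had 4.18 FPKM in opaque2 against 4.94 FPKM in wild type, and that at 20195172 had 4.90 FPKM in opaque2 against 4.21 FPKM in wild type. At the edge of the stretch, the last members, at 29681398 and 29746913, had 0.0111 and 2.08 FPKM in opaque2 and were listed at 0 in wild type. The first loci beyond it, at 30089187 and 30153192, had 0.727 and 3.17 FPKM in opaque2, against 0 and 3.10 FPKM in wild type. Near the 2-fold rule, 11 members differed by 2 to 2.2-fold and 14 missed it at 1.8 to 2-fold.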

How the data were processed

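The samples were 1 of opaque2 and 1 of wild type endosperm, both 15 days after pollination, grouped by their genotype labels. Each deposited table has a single FPKM column, per the file headers. The submitters' processing notes name Bowtie 0.12.2 without a role. How FPKM were estimated, and on which genome build and annotation, was not given in the sources used here.

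Starts were taken to count from 0, and 1 was added: of 115 organelle loci, 62 starts matched the reference table (assembly Zm-B73-REFERENCE-NAM-5.0) after adding 1 and 1 as written. Positions were not converted between builds. Log2 ratios of opaque2 over wild type used a pseudocount of 1, which understates the ratio of low loci. Folds that set a rule, a class or a median are on this scale of FPKM + 1, and folds of single loci are ratios of FPKM. With 1 library per genotype no test of a difference was made. The rule of size was tested on simulated data with 4-fold changes set in loci of 20 FPKM or more. Those data held no failed estimates and no reads split between loci, so they give no error rate for the loci here.

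Members, named loci and summaries were chosen with earlier results of these data known. Named loci were the 12 highest and 12 lowest ratios among members of 300 bp or more above 0 in both libraries, the 8 highest levels, the array, runs of 3 or more, the 5 highest levels listed at 0 in the other library per direction, the 8 highest steady members and loci at the limits. Some of them are given as counts or ranges. Python 3.11.15, NumPy 2.4.6, pandas 2.3.3 and Matplotlib 3.10.9 were used.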

Additional observations from a re-analysis of the deposited data

How the results depend on the processing

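The alternatives changed the pseudocount (0.1 or 5) and the floor (1 FPKM, 20 FPKM or none), and used 1.5-fold and 4-fold, equal totals, centring, loci of 300 bp or more, loci above 0 in both libraries, summed positions, other edges, and sums without the array or its highest locus. In all 17 settings the share of differing loci exceeded that of the other 9 chromosomes, by 2.15 to 3.83 times, and that of the rest of chromosome 7, by 1.73 to 3.64 times. The stretch was chosen by this share in these same libraries, so a lasting excess supports nothing by itself. Settings that started at 5 Mb also left out the window that had no differing locus. Counts moved by over 1.5 times where the rule or the loci admitted were other, by construction. With a floor of 20 FPKM, 37 members differed, 20 higher and 17 lower. At 1.5-fold it was 99, with 52 higher and 47 lower (36.4%), and at 4-fold 32, with 15 higher and 17 lower (11.8%). With a floor of 1 FPKM or none, 56 were higher, and without a floor the share was 12.3%. A pseudocount of 5 gave 22 higher and 23 lower. Among members above 0 in both libraries 17 were lower, and 16 when also 300 bp or longer. The array's summed log2 ratio was −0.30 without its sixth member. Of 440 recomputed ratios of the 58 named loci, 39 moved by over 1.5-fold, all with another pseudocount. None, that is 0, of the 42 loci at or beyond 2-fold turned direction in any of them, while the ratio of 1 steady locus near 0, at 24410021, turned sign in 2 rescalings. A pseudocount shared by both libraries or a filter cannot turn a direction, and the rescalings were small. Loci at or beyond 2-fold could therefore not have turned, and this outcome supports nothing. No paired analysis was possible because there is 1 library per genotype. The tables carry no counts, so a limit set by depth could not be given.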
